A study of Mus musculus with 6 samples.

Results

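The genes described here encode chromatin remodelers, enzymes that add or remove methyl groups on histones, and ARID-domain proteins, many of which are remodeler subunits. They were taken from the RNA table by symbol (Chd, Kmt, Kdm, Setd or Arid followed by a digit, and Smarca to Smarce), leaving out 3 genes (Kdm5c, Kdm5d and Kdm6a), which gave 67 of the 22584 genes in the table. Of these, 63 had enough counts to be tested between the methods. The remaining 4 were the pseudogenes Smarce1-ps1, Smarca5-ps and Setd9-ps, and Arid3c, with at most 20 counts in any library.

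The samples are brain tissue of wild-type (WT) mice, for which the labels give no age, sex, strain or brain region. RNA was extracted with TRIzol, a phenol and guanidine reagent, in 3 control libraries and with the AllPrep column kit, which also recovers DNA and protein, in 3 libraries. All 6 libraries were amplified by in vitro transcription with T7 RNA polymerase. The question is whether this gene group was measured at the same level after both extractions, and whether members with very long transcripts differed from shorter ones. No label says that the libraries came from separate animals, so a p-value here reflects only how far libraries of a method spread, and that spread may be technical.

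Chromatin remodelers are ATP-driven machines that slide, evict or restructure nucleosomes, and they fall into the SWI/SNF (BAF), ISWI, CHD and INO80 groups. Histone methyltransferases place marks such as H3K4 methylation at promoters and enhancers or H3K36 methylation along transcribed genes, and demethylases remove them. In brain, these enzymes act in neuronal differentiation and activity-dependent transcription, and mutations in many of them cause neurodevelopmental disorders. Several are among the largest nuclear proteins, with correspondingly long mRNAs.

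Levels are CPM, the gene's counts divided by the library's total and scaled to 1000000 counts, and the mean over 6 libraries ran from 0.550 CPM to 760 CPM among the 63 tested members, with a median of 64.6 CPM against 18.9 CPM for all tested genes. Divided by transcript length in kilobases, so that genes can be compared, Chd3 (105 CPM per kb), Smarcc2 (75.3 CPM per kb), Setd3 (58.0 CPM per kb), Smarca2 (48.5 CPM per kb) and Chd5 (40.0 CPM per kb) were the highest. Members together took 0.548% ± 0.00947 of all counts in TRIzol and 0.627% ± 0.0229 in AllPrep (SD, n = 3), with 0.539% to 0.558% in the TRIzol libraries and 0.608% to 0.653% in the AllPrep libraries.

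In AllPrep 7 members were higher and 0 lower (edgeR's quasi-likelihood test, Benjamini-Hochberg adjusted p below 0.05 over all 16325 tested genes). The 7 are Setd1b, Setd2, Kmt2a and Kmt2c, which methylate histone H3, and Arid1a, Arid1b and Smarcc1, which are subunits of BAF complexes. They make up 11.1% of tested members, where 2.52% of all tested genes were called higher and 1.28% lower. At an unadjusted p below 0.05, 23 members were higher and 2 lower, where 13.4% and 12.4% of all tested genes were. DESeq2 called 14 members higher and 1 lower, where 7.59% and 4.58% of all genes were called. With the replicate number of the labels as a block, 4 members were higher and 0 lower (1.19% and 0.251% of all genes). Leaving out a library changed the calls. Without TRIzol replicate 1 there were 3 members higher (0.724% of all genes higher, 0.156% lower), without TRIzol replicate 2 there were 0 (0.0120% and 0.00%) and without TRIzol replicate 3 there were 3 (0.829% and 0.411%). Without AllPrep replicate 1, 2 or 3 there were 0 members (0.0666%, 0.150% and 0.133% of all genes higher, 0.0121%, 0.0120% and 0.0362% lower). In each of these 6 fits 0 members were lower past the adjusted threshold. At an unadjusted p below 0.05, 19 to 24 members were higher and 2 to 3 lower in these fits, where 10.3% to 13.3% of all tested genes were higher and 8.61% to 12% lower.

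Setd1b, a catalytic subunit of a COMPASS complex that methylates H3K4, had 36.0, 38.1 and 37.2 CPM in TRIzol and 54.3, 54.4 and 58.3 CPM in AllPrep. The groups did not overlap, and the fold change of 1.54 (log2 0.62, SE 0.07, adjusted p = 0.016 in edgeR) was the one with the smallest p among members. Setd2, the enzyme that trimethylates H3K36 behind elongating RNA polymerase, had 81.8, 75.8 and 82.5 CPM in TRIzol and 111, 112 and 110 CPM in AllPrep. Its AllPrep libraries lay within 2 CPM of 111, and the log2 fold change was 0.51 (SE 0.07, adjusted p = 0.023 in edgeR).

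Kmt2a, also called MLL1, an H3K4 methyltransferase that keeps developmental genes active, had 171, 149 and 165 CPM in TRIzol and 243, 223 and 269 CPM in AllPrep. The difference was the largest among tested members on the log2 scale, at 0.63 (SE 0.10, adjusted p = 0.026 in edgeR). Kmt2c, which methylates H3K4 at enhancers, had 92.2, 85.6 and 95.2 CPM in TRIzol and 133, 120 and 141 CPM in AllPrep, a log2 fold change of 0.57 (SE 0.08, adjusted p = 0.026 in edgeR). For both genes AllPrep replicate 3 was the highest library and TRIzol replicate 2 the lowest.

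Arid1a and Arid1b are alternative DNA-binding subunits of the BAF complex. Arid1a had 104, 131 and 127 CPM in TRIzol and 171, 173 and 187 CPM in AllPrep (log2 fold change 0.59 ± 0.10 SE, edgeR adjusted p = 0.033). Arid1b had 75.5, 84.6 and 81.3 CPM in TRIzol and 107, 102 and 112 CPM in AllPrep (log2 fold change 0.45 ± 0.07 SE, edgeR adjusted p = 0.032). In both genes TRIzol replicate 1 was the lowest library, and no AllPrep library came down to a TRIzol value. Smarcc1, the BAF155 core scaffold, had 61.9, 64.2 and 59.7 CPM in TRIzol and 76.2, 83.4 and 84.3 CPM in AllPrep (log2 fold change 0.43 ± 0.08 SE, edgeR adjusted p = 0.034). The Smarcc1 gene overlaps Dhx30 on the opposite strand, and since the sources used here do not say whether strand was used in counting, reads of the overlap cannot be assigned. The same holds for other members named here that overlap a gene on the opposite strand, among them Kmt2e (with Srpk2), Kdm1a (with Luzp1), Kdm5a (with Ccdc77), Kdm2b (with Rnf34) and Arid4b (with Ggps1).

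**Figure D1:**
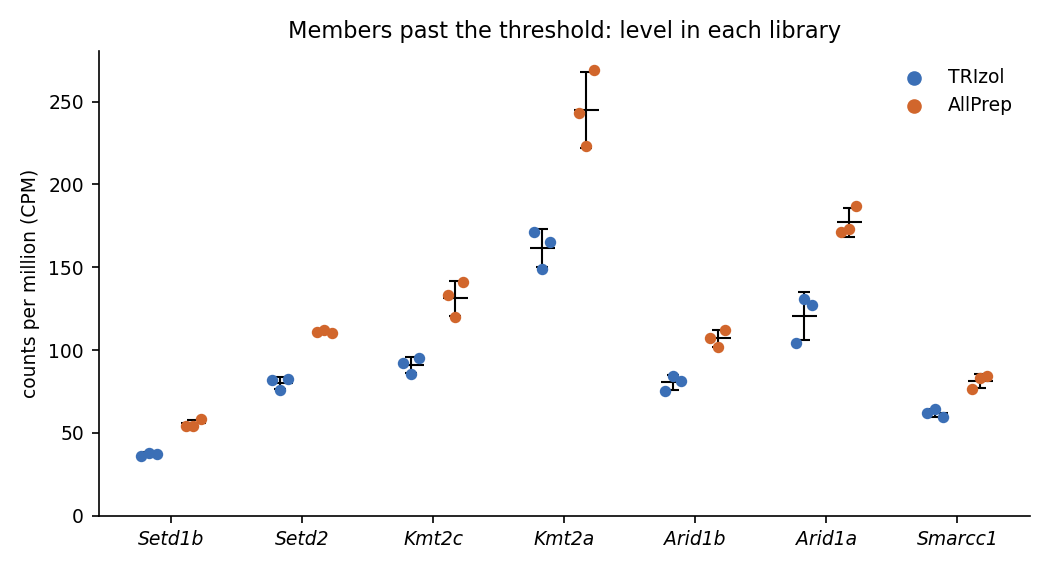
Level of the 7 members past the threshold in each library, in CPM on a linear axis from 0, with TRIzol in blue and AllPrep in orange, 1 point per library, and bars for mean ± SD (n = 3). In every gene the 3 AllPrep points lie above the 3 TRIzol points, for Setd1b from 54.3 CPM against 38.1 CPM at most.

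Promoter stretches are shown for 3 of the 7 called members, those with the smallest p among the ones with exactly 1 start site in RefSeq. All 7 were picked by the same test, and shared regulation of these genes was not tested. RefSeq's table on GRCm38.p6 had an entry for 47 of the 67 members, with 63 start sites between them, and for Setd2, Kmt2c and Kmt2a it had a single one each. The 100 bases directly before the annotated start are given 5′ to 3′ with every CpG dinucleotide in capitals, for Setd2 at chr9:110532497-110532596 on the plus strand, Kmt2c at chr5:25498784-25498883 on the minus strand and Kmt2a at chr9:44881290-44881389 on the minus strand.
Setd2: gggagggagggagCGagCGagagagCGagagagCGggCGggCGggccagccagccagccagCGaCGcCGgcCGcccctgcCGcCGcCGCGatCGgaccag
Kmt2c: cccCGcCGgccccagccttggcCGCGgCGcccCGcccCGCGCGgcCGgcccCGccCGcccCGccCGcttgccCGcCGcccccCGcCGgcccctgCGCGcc
Kmt2a: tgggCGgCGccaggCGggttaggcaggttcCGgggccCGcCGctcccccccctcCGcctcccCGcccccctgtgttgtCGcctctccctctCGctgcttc

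These stretches hold 15, 20 and 10 CpG dinucleotides. In the full window of 300 bases around each start (250 before, 50 after), Setd2, Kmt2c and Kmt2a had 38, 56 and 36. Members as a whole had a median of 27.0 CpG per window (63 windows), against 18 for the windows of tested genes and 7 for all windows in the table. On either strand, GGGCGG stood in 74.6% of member windows, 58.2% of windows of tested genes and 35.7% of all windows. TATAAA stood in 3.17%, 7.65% and 13.6%, and CCAAT in 38.1%, 37.2% and 37.4%. Very long members had a median of 32.0 CpG (15 windows) and shorter members 25.5 (48 windows). These are descriptions of the letters in the windows, and no binding or methylation was measured.

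Among the methyltransferases, the genes with negative values were those with short transcripts. Of the 16 tested KMT and SETD genes 4 rose and 12 did not pass, with 11 positive and 5 negative log2 fold changes and a median of 0.20. All 5 Kmt2 genes had positive values, as did 84.5% of tested genes with transcripts of at least 8000 bases and 69.8% of those from 6000 to 8000. Kmt2d, an enhancer H3K4 methyltransferase with the longest transcript of all members (19823 bases), had 129, 106 and 103 CPM in TRIzol and 130, 127 and 171 CPM in AllPrep. AllPrep replicate 3 stood apart, the groups overlapped, and the log2 fold change of 0.38 (SE 0.14) did not pass (adjusted p = 0.15 in edgeR). Kmt2e, a PHD and SET domain protein, reached 128 ± 1.95 CPM against 105 ± 7.48 CPM (adjusted p = 0.06 in edgeR), and Kmt2b 80.8 ± 2.64 against 72.0 ± 2.36 CPM (adjusted p = 0.11). Setd1a, the paralogue of Setd1b in the same kind of complex, had a log2 fold change of 0.23 (adjusted p = 0.12), against 0.62 for Setd1b; the difference between the paralogues was not tested.

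The 5 negative values belonged to Setd3, Setd4, Setd6, Kmt5a and Kmt5c, with transcripts under 4000 bases. Setd4 had 10.8, 8.46 and 8.27 CPM in TRIzol and 6.62, 5.89 and 5.91 CPM in AllPrep, a log2 fold change of -0.55 (SE 0.14) that did not pass (adjusted p = 0.07 in edgeR), although the groups did not overlap. It was the 1 member that DESeq2 called lower. Setd3, an actin histidine methyltransferase and the most abundant SETD gene per length, had 194 ± 25.4 CPM in TRIzol and 160 ± 7.94 CPM in AllPrep (log2 fold change -0.24, adjusted p = 0.20). Kmt5a and Kmt5c, which methylate H4K20, had -0.06 and -0.29, and Setd6 had -0.12. Setd7, a lysine methyltransferase of histone and other proteins, was scattered in TRIzol at 167, 185 and 242 CPM and lay at 227, 227 and 206 CPM in AllPrep.

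No CHD remodeler passed the test, although all 9 had positive log2 fold changes in the main edgeR test (median 0.12). Of all tested genes 48.5% were positive, 2.52% were called higher and 1.28% lower. Chd2 turned negative with library size alone, with the trend on GC content removed and without TRIzol replicate 1, and Chd7 without TRIzol replicate 2. When the trend on transcript length was removed, alone or with that on GC, Chd1, Chd2, Chd5, Chd6, Chd7, Chd8 and Chd9 were negative. In this family 3 genes were higher at an unadjusted p below 0.05, where 13.4% of all tested genes were. DESeq2 called 2 higher (7.59% of all genes), Chd3 and Chd4. These are alternative ATPases of the NuRD complex, which couples remodeling to histone deacetylation. Chd3, the most abundant member, had 613, 665 and 681 CPM in TRIzol and 800, 777 and 1026 CPM in AllPrep (log2 fold change 0.45 ± 0.12 SE, edgeR adjusted p = 0.076), with AllPrep replicate 3 apart from the other libraries. Chd4 had 218, 203 and 228 CPM in TRIzol and 260, 259 and 247 CPM in AllPrep (0.27, SE 0.07, adjusted p = 0.072). Their neuronal paralogue Chd5 had 348, 409 and 355 CPM against 387, 355 and 422 CPM, which overlap, with a limma 95% interval of -0.12 to 0.32 for the log2 difference.

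The 6 very long CHD genes ranged from 0.02 to 0.21 on the log2 scale. Chd6, with a transcript of 10515 bases, had 130, 120 and 127 CPM in TRIzol and 153, 136 and 136 CPM in AllPrep, without overlap, and a log2 fold change of 0.21 (limma 95% interval 0.04 to 0.37) that did not pass (edgeR adjusted p = 0.14). Chd8, a gene linked to autism, had 0.13 (interval -0.01 to 0.28), also without overlap. These values lie below the 0.23 that was the median of all very long members. Chd9, with a transcript of 12008 bases, had a log2 fold change of 0.12 (limma 95% interval -0.03 to 0.27). Chd7, the gene mutated in CHARGE syndrome, had 0.11 (interval -0.20 to 0.44) with a transcript of 10216 bases and only 18.5 ± 3.09 CPM in TRIzol. Chd2, at 9085 bases, had 68.3, 79.9 and 79.6 CPM in TRIzol and 78.1, 71.1 and 75.9 CPM in AllPrep. Its value of 0.02 (interval -0.17 to 0.21) was the lowest of the very long members. Setd1b, of similar length and with the smallest p among members, had 0.62, above that interval. Both genes were singled out from these same values, and the difference between them was not tested.

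Of the 13 tested SMARC genes only Smarcc1 rose (7.69%, against 2.52% of all tested genes). The paralogue Smarcc2, the BAF170 scaffold, had 349, 333 and 342 CPM in TRIzol and 350, 344 and 344 CPM in AllPrep, with a log2 fold change of 0.05 (limma 95% interval -0.09 to 0.20) against 0.43 for Smarcc1 (interval 0.25 to 0.60). These intervals do not overlap, and the difference itself was not tested. The ATPase Smarca2 (BRM) was tightly grouped at 274, 275 and 274 CPM in TRIzol and 299, 298 and 303 CPM in AllPrep, yet its log2 fold change of 0.16 did not pass (adjusted p = 0.16 in edgeR). The alternative ATPase Smarca4 (BRG1) had 175 ± 3.30 and 187 ± 3.73 CPM (adjusted p = 0.27).

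Among accessory subunits, Smarcd1 and Smarcd2, which replace each other in BAF complexes, had log2 fold changes of opposite sign. Smarcd1 had 106 ± 10.2 CPM in TRIzol and 129 ± 9.20 CPM in AllPrep (0.33, adjusted p = 0.097 in edgeR). Smarcd2 had 18.4, 16.0 and 16.4 CPM in TRIzol and 14.1, 12.6 and 11.9 CPM in AllPrep (-0.36, adjusted p = 0.087). Neither passed in edgeR, and DESeq2 called Smarcd1 higher. The core subunit Smarcb1, the ISWI ATPases Smarca1 and Smarca5, Smarce1, Smarcd3 and the DNA repair helicase Smarcad1 had values from -0.02 to 0.17. Smarcal1, which remodels stalled replication forks, ranged from 31.8 to 64.9 CPM within TRIzol alone. Smarce1 and Smarca5 share sequence with the untested pseudogenes Smarce1-ps1 and Smarca5-ps, and Kdm4d with Kdm4dl, so any read that fits either copy leaves these counts uncertain.

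Of the 9 tested ARID genes Arid1a and Arid1b rose (22.2%, against 2.52% of all tested genes), and 7 did not pass. Arid2, the DNA-binding subunit of the PBAF complex, had 44.8 ± 1.74 CPM in TRIzol and 50.7 ± 1.46 CPM in AllPrep (log2 fold change 0.21, adjusted p = 0.11 in edgeR). Of the Sin3 complex partners, Arid4a had 0.21 and Arid4b 0.02 (limma 95% interval -0.12 to 0.17), the latter at 72.4, 70.3 and 69.3 against 72.3, 67.3 and 71.0 CPM. With library size alone as the scaling, the value of Arid4b was -0.01. Arid5b had 0.27 (adjusted p = 0.14) and Arid3b, the only negative one, -0.32 (adjusted p = 0.36).

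None of the 16 tested KDM genes passed, where 2.52% of all tested genes were called higher and 1.28% lower. Values were positive for 14 and negative for 2 (median 0.14), where 48.5% of all tested genes were positive. The KDM genes were grouped by symbol, and not every one need encode an active histone demethylase. Kdm4dl, annotated as a pseudogene, had one of the negative values (-0.29, 13 to 30 counts per library). The other was Kdm1b, at -0.00. In this family 4 were higher at an unadjusted p below 0.05, where 13.4% of all tested genes were. DESeq2 called 3 higher (7.59% of all genes), namely Kdm5a, Kdm5b and Kdm6b. Kdm5a, which removes H3K4 methylation, had 57.5, 63.2 and 63.1 CPM in TRIzol and 75.8, 69.6 and 72.4 CPM in AllPrep (log2 fold change 0.28 ± 0.07 SE, edgeR adjusted p = 0.063). Kdm6b, an H3K27 demethylase, had 27.6, 23.6 and 28.6 CPM in TRIzol and 31.7, 33.5 and 35.9 CPM in AllPrep (0.38, SE 0.10, adjusted p = 0.076). In both the groups did not overlap.

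The H3K4 demethylase Kdm1a (LSD1), the most abundant KDM gene per length, had similar levels in all libraries. They stood at 64.0, 62.9 and 66.5 CPM in TRIzol and 65.1, 65.1 and 64.3 CPM in AllPrep, a log2 fold change of 0.04 with a limma 95% interval of -0.10 to 0.19. Kdm4b, which acts on H3K9, had 61.9 ± 2.59 and 64.0 ± 0.814 CPM (0.08, interval -0.07 to 0.24). The H3K36 demethylases Kdm2a and Kdm2b had 0.23 and 0.24 (adjusted p = 0.099 and 0.23 in edgeR), and the H3K9 demethylases Kdm3a and Kdm3b 0.08 and 0.13.

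**Figure D2:**
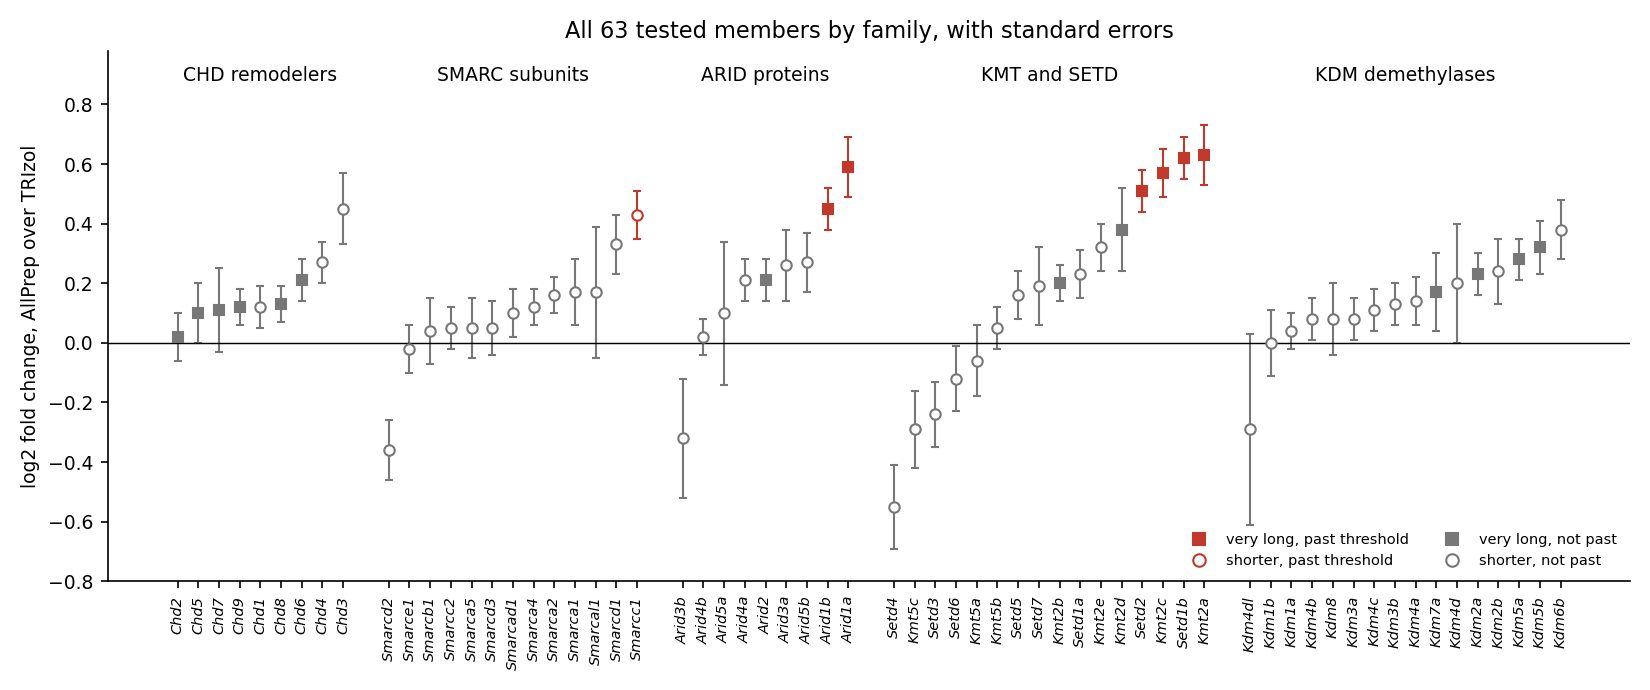
Log2 fold change of AllPrep over TRIzol for the 63 tested members, ordered by value within each family, with bars for the standard error (n = 3 per method); filled squares are transcripts of at least 8000 bases, open circles shorter ones, and red marks genes past the threshold. The red symbols lie between 0.43 and 0.63, and all filled squares lie above 0, Chd2 lowest at 0.02. Some filled squares, Chd2 among them, were negative in other fits given in the text.

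Very long members, defined as having a longest annotated transcript of at least 8000 bases, were called more often than shorter ones, as were very long genes in general. Of 19 very long members 6 rose (31.6%), against 153 of 925 very long tested genes (16.5%). Of 44 shorter members 1 rose (2.27%), against 1.68% of shorter tested genes. In neither length group was a member lower, where 0.541% of very long and 1.33% of shorter tested genes were. All 19 very long members had positive values in the main edgeR test (0.02 to 0.63), as did 84.5% of very long tested genes. Shorter members ran from -0.55 to 0.45 with 34 positive and 10 negative (77.3% positive, against 46.4% of shorter tested genes). Of the very long members, Chd2 turned negative with library size alone, with the GC trend removed and without TRIzol replicate 1. Chd7 did so without TRIzol replicate 2, and 12 of the 19 did so with the length trend removed. The threshold fell between Chd1 (7916 bases, 0.12) and Arid5b (7581 bases, 0.27) on one side and Arid1a (8187 bases, 0.59) and Setd2 (8350 bases, 0.51) on the other.

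Libraries of the 2 methods did not overlap, with AllPrep higher, for 14 of the 19 very long members (73.7%) and 16 of the 44 shorter ones (36.4%). Over all tested genes these shares were 49.1% of very long and 11.3% of shorter genes. AllPrep was lower without overlap for 0 very long members and 4 shorter ones (9.09%), where 4.54% of very long and 21.6% of shorter tested genes were. Taking both lengths together, 30 of 63 members were higher without overlap and 4 lower, against 13.4% and 20.6% of all tested genes.

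The members' median differences were close to those of all tested genes of like length, but from 4000 bases up a larger share of members was positive. The median log2 fold change was 0.23 for very long and 0.11 for shorter members, a difference of 0.12, against 0.29 and -0.02, a difference of 0.31, for all tested genes. In 5 length classes the members' medians were -0.06 (under 4000 bases, 13 members), 0.11 (4000 to 6000, 17 members), 0.17 (6000 to 8000, 14 members), 0.21 (8000 to 10000, 11 members) and 0.33 (10000 or more, 8 members). All tested genes had -0.07, 0.05, 0.13, 0.22 and 0.35 in the same classes, so the members' medians lay within 0.06 of them. Values were positive for 38.5%, 88.2%, 100%, 100% and 100% of members in these classes. For all tested genes these shares were 39.3%, 57.8%, 69.8%, 82.6% and 87.1%. AllPrep was higher without overlap for 7.69%, 35.3%, 64.3%, 72.7% and 75.0% of members. Over all tested genes it was so for 7.20%, 16.2%, 29.3%, 41.3% and 59.2%. Shorter members had a median transcript of 4992 bases and 13 of their 44 were under 4000 bases, while 10242 of the 15294 shorter tested genes were under 4000 bases.

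Across the 63 members, Spearman's rho between log2 fold change and transcript length was 0.62, and it was 0.61 with protein length (62 members), 0.34 with gene span, 0.43 with mean CPM and 0.05 with GC content. Over all tested genes rho with transcript length was 0.31 (16219 genes). The points share the same 6 libraries, and genes are not independent replicates. The longest annotated transcript need not be the one expressed; Smarcb1, for example, has an annotated transcript of 7441 bases for a protein of 385 residues.

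**Figure D3:**
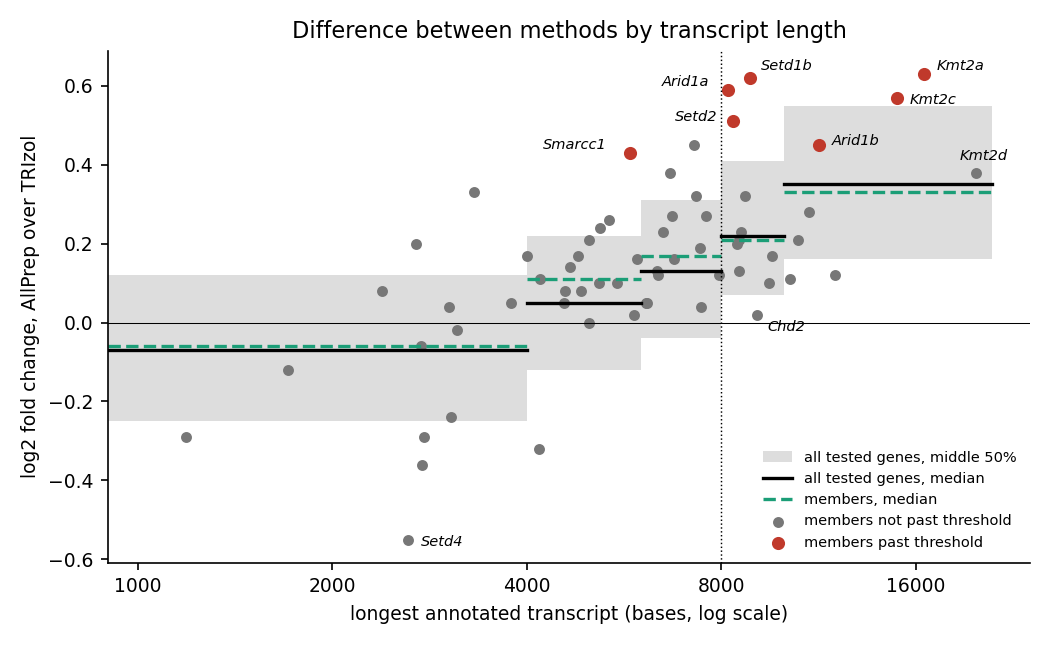
Log2 fold change of AllPrep over TRIzol against longest annotated transcript in bases (log axis), 1 point per tested member, red where past the threshold; black lines and grey boxes give the median and the middle 50% of all tested genes in 5 length classes, and dashed green lines the members' median. The members' medians climb from -0.06 to 0.33 beside -0.07 to 0.35 for all tested genes. Setd1b, Arid1a and Setd2 lie above the upper edge of the grey box of their class, at 0.41. Kmt2a and Kmt2c lie above theirs, at 0.55, and Smarcc1 above its own, at 0.22, while Arid1b lies within its box. Some members not past the threshold also lie above, among them Chd3 (0.45, upper edge 0.31).

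When trends on transcript length and GC content were removed from each library, 0 members were called higher and 0 lower in edgeR, where 0.919% of all genes were called higher and 1.54% lower. At an unadjusted p below 0.05, 5 members were higher and 6 lower, against 8.14% and 14.9% of all tested genes. The median of very long members was then -0.05, and 7 of 19 had positive values; 27 of the 63 members, 12 of them very long, changed sign. Among the 7 genes called before this step, Setd1b, Arid1a, Smarcc1 and Setd2 then had the largest values, 0.32, 0.32, 0.29 and 0.27 (adjusted p = 0.057, 0.073, 0.10 and 0.096), while Kmt2a, Kmt2c and Arid1b had 0.15, 0.12 and 0.07. Kmt2d turned to -0.15 and Chd5 to -0.23. With the length trend alone removed only Setd1b passed among members (adjusted p = 0.044; 0.937% of all genes higher, 1.48% lower), and with the GC trend alone removed all 7 passed (2.04% and 1.97%). With the replicate block and both trends removed 0 members passed (0.190% and 0.116%).

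The same difference can be read by library. Taken as the log2 deviation from each gene's mean over the 6 libraries, which sets the methods on opposite sides of 0 wherever they differ, the very long members had medians of -0.14, -0.17 and -0.10 in TRIzol replicates 1 to 3 and 0.10, 0.10 and 0.16 in AllPrep replicates 1 to 3. Shorter members had -0.02, -0.10 and -0.04 in TRIzol and 0.05, 0.06 and 0.07 in AllPrep. By this measure very long members stood below shorter ones in all 3 TRIzol libraries and above them in all 3 AllPrep libraries, by -0.12 to -0.06 and by 0.04 to 0.09. Over all tested genes the same gap was -0.22 to -0.08 in TRIzol and 0.12 to 0.21 in AllPrep, with AllPrep replicate 3 at the top in both.

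**Figure D4:**
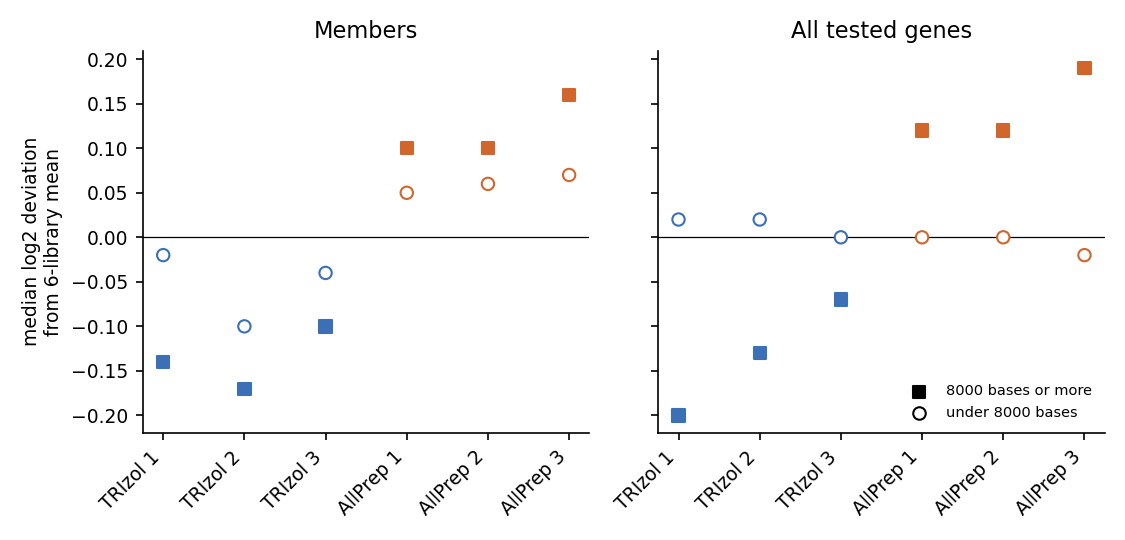
Median log2 deviation from each gene's mean over the 6 libraries, for members on the left and all tested genes on the right, with squares for transcripts of at least 8000 bases and circles for shorter ones, blue for TRIzol and orange for AllPrep. Squares lie below circles in the 3 TRIzol libraries and above them in the 3 AllPrep libraries in both panels; for members they go from -0.17 in TRIzol replicate 2 to 0.16 in AllPrep replicate 3.

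Other chromatin genes, from 6 lists of partners and related enzymes, gave a like picture by length. Of 95 such genes 8 rose, 2 fell and 85 did not pass (median 0.05, 56 positive), where 2.52% of all tested genes rose and 1.28% fell. Of the 16 very long ones 6 rose (37.5%, median 0.36), against 16.5% of very long tested genes. All 16 had positive values, as did 84.5% of very long tested genes. Of the 79 shorter ones 2 rose and 2 fell (median 0.01), where 1.68% of shorter tested genes rose and 1.33% fell. Ash1l, an H3K36 methyltransferase, had 167 ± 12.1 CPM in TRIzol and 235 ± 4.13 CPM in AllPrep (difference 0.53 on the log2 scale, adjusted p = 0.025 in edgeR). Bptf, the large subunit of the ISWI complex NURF, went from 106 ± 13.1 to 161 ± 12 CPM (0.64, adjusted p = 0.032), and Ep400, an INO80-family ATPase, from 94.0 ± 3.63 to 129 ± 10.1 CPM (0.49, adjusted p = 0.032). Rsf1, a partner of the ISWI ATPase Smarca5, rose by 0.37 (adjusted p = 0.041).

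Of the genes that passed with transcripts under 8000 bases, the 2 that rose lay close to that threshold. Prdm2, a zinc-finger methyltransferase (7304 bases), rose by 0.52 (adjusted p = 0.028 in edgeR). Pbrm1, the PBAF bromodomain subunit (7907 bases), rose by 0.49 (adjusted p = 0.026 in edgeR). The 2 that fell were Dot1l, the H3K79 methyltransferase, from 78.7 ± 2.46 to 56.5 ± 4.68 CPM (adjusted p = 0.034), and Brd9, a subunit of the non-canonical BAF complex, from 84.4 ± 8.67 to 53.4 ± 6.53 CPM (adjusted p = 0.035). No gene passed among 12 Polycomb PRC2 genes (median -0.02), 12 COMPASS subunits (median 0.04) and 9 genes listed as demethylases, related enzymes or partners (median 0.10).

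Some marker lists differed between the methods. All libraries held markers of neurons, astrocytes, oligodendrocytes and microglia, as brain should. The 8 choroid plexus markers summed to 15.1 to 22.0 CPM in TRIzol and 597 to 1200 CPM in AllPrep, and all 8 rose. The 8 ependymal markers went from 9.87 to 22.0 CPM to 31.2 to 45.2 CPM, 4 of them called. Oligodendrocyte markers ran from 6050 to 7113 CPM in TRIzol and from 3203 to 5644 CPM in AllPrep, with 0 of 8 called in edgeR. The 8 neuronal markers had 8222 to 8809 and 7812 to 8337 CPM, which overlap, and 0 of 8 called. Astrocyte markers summed to 4228 to 4857 CPM in TRIzol and 4935 to 5246 CPM in AllPrep, without overlap. Of these, 1 was called higher (Slc1a3), and log2 fold changes were positive for 4 and negative for 4. Microglia markers had 288 to 300 and 313 to 330 CPM, also without overlap, with 0 of 8 called. Endothelial and meningeal fibroblast sums overlapped, with 0 of 8 called in each. The 7 matched RNAs of a list of nuclear-retained RNAs summed to 6625 to 7024 CPM in TRIzol and 3938 to 4557 CPM in AllPrep. Most of that sum was Meg3, at 3976 ± 324 CPM in TRIzol and 2535 ± 259 CPM in AllPrep. Of the 7, 4 fell (Meg3, Snhg11, Mirg and Miat). Neat1 (log2 fold change -0.53, adjusted p = 0.10 in edgeR), Malat1 (0.06) and Kcnq1ot1 (0.13) did not pass. Meg3 (14548 bases), Miat (9163 bases) and Neat1 (20771 bases) were thus very long with negative values, while Kcnq1ot1 (93092 bases) was positive. Of the marker genes in the table, only the haemoglobin gene Hba-a2 was at 0 in any library. In bulk tissue, fewer cells of a type and less RNA per cell cannot be told apart, and the part of these shifts in the members' differences was not tested.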

How the data were processed

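Total RNA of brain tissue was measured in 3 AllPrep and 3 TRIzol libraries, grouped by their titles. The authors deposited raw counts per gene. Per the submitters' processing notes GRCm39 was the genome and the tools named are STAR 2.7.9a, featureCounts, cutadapt, FastQC 0.11.9 and limma 3.60.6. For strand and multi-mapping, settings were not given in the sources used here. From 22692 rows, 108 repeats of an Ensembl ID with identical counts were removed. Totals were 36395330 to 50937858 counts per library. All 6 entered as separate libraries, since libraries of a method differed by more than counting error (lowest ratio of chi-square to its degrees of freedom 14.3).

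The test was edgeR 4.0.16 in R 4.3.3 (filterByExpr, TMM, quasi-likelihood F-test, two-sided, Benjamini-Hochberg adjusted p below 0.05 over all tested genes), with SE as the log2 fold change divided by the square root of F. Levels are CPM of column totals; TMM factors were 0.9773 to 1.017, so CPM ratios and fitted fold changes differ slightly. Intervals are from limma 3.58.1 (trend, prior count 2). Alternatives used DESeq2 1.42.0, other scalings and filters, halved counts (64.2% to 70.9% of counts from 1 to 20 were even), a replicate block, trends on length and GC removed with mgcv 1.9.3, and each library left out. On simulated data for this comparison (16151 genes) the edgeR step recovered 26.9%, 71.6% and 93.9% of genes changed 1.5-, 2- and 4-fold, while 11.7% of what it called had not been changed. Transcript, protein and gene lengths and overlaps are from GENCODE M21, on GRCm38, matched by Ensembl ID; promoters are from RefSeq on GRCm38.p6, matched by symbol.

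The members and gene lists were chosen with earlier results of these data known. Named genes are all members past the threshold, in each family the 2 of smallest p and the 2 of highest CPM per kb, the longest and shortest members, those next to the length threshold, and up to 3 called genes in each related list; others named are given with their values and were chosen after these were seen.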

Additional observations from a re-analysis of the deposited data

How the results depend on the processing

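Against 7 members called higher and 0 lower, DESeq2 called 14 and 1, and the fit with the replicate block 4 (Arid1a, Kmt2a, Kmt2c and Setd1b) and 0. The labels do not say what the replicate number marks. Same-numbered libraries had deviations correlated at -0.0482, 0.00634 and 0.16, and differently numbered ones at -0.167 to 0.198. With 3 libraries per method these values cannot decide whether same-numbered libraries were paired. With length and GC trends removed 0 members were called higher, likewise with the replicate block, and 1 with the length trend alone removed. With each library left out, 0 to 3 members were called higher. Over all genes, 412 higher and 209 lower became 1248 and 753 in DESeq2, 195 and 41 with the replicate block, 31 and 19 with the replicate block and both trends removed, and 2 to 137 and 0 to 68 with a library left out. They became 150 higher and 251 lower with both trends removed, 153 and 242 with the length trend alone removed, 333 and 322 with the GC trend alone removed, and 343 and 305 with library size alone.

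The members' median of 0.14 was 0.11 with library size alone, 0.10 with the GC trend removed, -0.01 with the length trend removed and -0.02 with both, with or without the replicate block; it was 0.12 to 0.17 with a library left out. The gap of 0.12 between very long and shorter members was 0.20 at a threshold of 10000 bases, 0.17 by protein of at least 1500 residues, 0.07 by gene span of at least 100000 bases, and 0.10 to 0.16 with a library left out. It was -0.04 with both trends removed, with or without the replicate block, and -0.05 with the length trend alone removed, as that fit takes out differences by length.

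With both trends removed 27 of 63 members changed sign, 12 of them very long, and with the length trend alone 24 and 12. Individual values were recomputed for genes named by the rule. Among these, values that changed sign with both trends removed were Chd5 (-0.23), Smarcc2 (-0.04), Setd7 (-0.02), Kdm5a (-0.05), Kdm4b (-0.02), Kmt2d (-0.15), Chd1 (-0.09) and Arid4b (-0.06), and with the replicate block added they were the same apart from Setd7 (-0.01). With the length trend alone removed they were Chd5 (-0.19), Smarcc2 (-0.02), Setd7 (-0.01), Kdm5a (-0.06), Kmt2d (-0.11), Chd1 (-0.11) and Arid4b (-0.11). Arid4b was also -0.01 with library size alone, and Kdm1a -0.01 with the GC trend alone removed; over all members 2 and 4 changed sign in these fits, Chd2 being the very long one in both. None of these had passed the test. With a library left out, 1 to 5 members changed sign. The very long ones among them were Chd2 without TRIzol replicate 1 and Chd7 without TRIzol replicate 2. The fits with a single trend removed were chosen after seeing the data. With 3 libraries per method, members that did not pass may still differ.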
